A study of Mus musculus with 6 samples.

Results

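ATF4 peaks annotated at gene promoters were analyzed in 4 ChIP-seq peak lists from primary mouse embryonic fibroblasts (MEFs), which are connective tissue cells grown from embryos. The promoter peaks were all rows whose annotation by HOMER, the tool the authors used to place peaks relative to genes, begins with promoter-TSS (transcription start site). There were 514 of them among 17462 peaks in all. WT +Leu MEFs had 119 promoter peaks of 4850, WT -Leu MEFs 253 of 6374, GCN2 KO +Leu MEFs 83 of 3566 and GCN2 KO -Leu MEFs 59 of 2672. All 514 were kept, without a filter on score.

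The study asked where ATF4 binds when leucine is withheld and whether this needs GCN2. WT and GCN2 KO cells, both of the 129S6/SvEvTac strain, spent 24 h in complete DMEM (+Leu) or in DMEM lacking leucine (-Leu). Each condition was 1 library, made from chromatin pooled over 2 experiments with 5 or more replicates each. Pooling leaves no replicate to compare, so no test between conditions was possible and the intervals given here are 95% Wilson intervals that cover counting error only. The -Leu lists had been called against input DNA of +Leu cells of the same genotype, and the 2 input libraries were not analyzed here. Loss of GCN2 and the identity of the cells cannot be checked from peak lists. The sequencing depth of the libraries is unknown, and differing numbers or scores of peaks between libraries cannot be told apart from unequal depth.

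ATF4 is a basic leucine zipper (bZIP) transcription factor whose own mRNA is translated more when eIF2α is phosphorylated, the central event of the integrated stress response. GCN2 is the eIF2α kinase that responds to uncharged tRNA. ATF4 pairs with other bZIP proteins, often of the C/EBP family, and binds composite elements in which an ATF half-site (TGA) is joined to a C/EBP half-site (GCAA). Its known targets include genes for amino acid synthesis, amino acid transport, tRNA charging and feedback within the stress response.

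Of the 24 promoter sites with a peak in 3 or 4 lists, 12 held TGATGCAA, which joins both half-sites, and 18 held TGATGNAA, in which position 6 may be any base. The elements of 11 of them, and that of Larp1, are printed here because their scores carry the comparisons that follow. Capitals mark TGATGNAA (N is any base), read in the direction of the motif, in the mm10 reference, taken from the WT -Leu window of each gene.
Chac1, chr2:119351033-119351072, minus strand: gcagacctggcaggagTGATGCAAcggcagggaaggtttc
Asns, chr6:7693209-7693248, minus strand: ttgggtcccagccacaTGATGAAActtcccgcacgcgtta
Yars, chr4:129189890-129189929, plus strand: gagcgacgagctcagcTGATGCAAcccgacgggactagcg
Aars, chr8:111033714-111033753, minus strand: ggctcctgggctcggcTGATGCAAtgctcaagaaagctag
Iars, chr13:49682121-49682160, minus strand: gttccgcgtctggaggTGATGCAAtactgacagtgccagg
Gars, chr6:55037955-55037994, minus strand: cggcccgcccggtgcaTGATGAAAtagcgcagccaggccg
Ddit3, chr10:127290476-127290515, minus strand: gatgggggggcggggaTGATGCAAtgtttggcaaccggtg
Trib3, chr2:152344023-152344062, plus strand: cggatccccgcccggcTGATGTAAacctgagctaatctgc
Ppp1r15b, chr1:133131090-133131129, plus strand: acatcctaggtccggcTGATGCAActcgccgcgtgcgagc
Kdm6b, chr11:69414531-69414570, plus strand: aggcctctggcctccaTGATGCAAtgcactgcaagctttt
Acot2, chr12:83987532-83987571, plus strand: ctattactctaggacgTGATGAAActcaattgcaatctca
Larp1, chr11:58008737-58008776, minus strand: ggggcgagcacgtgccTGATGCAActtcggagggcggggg
Of these 12 elements, those of Asns, Gars and Acot2 read TGATGAAA and that of Trib3 reads TGATGTAA. The other 8 read TGATGCAA. The gene with the highest-scoring promoter peak in every list was Chac1, an enzyme that degrades glutathione. Its whole WT -Leu window is shown on the plus strand, where the capitals mark the same element read from the opposite strand.
Chac1, chr2:119350906-119351205, plus strand: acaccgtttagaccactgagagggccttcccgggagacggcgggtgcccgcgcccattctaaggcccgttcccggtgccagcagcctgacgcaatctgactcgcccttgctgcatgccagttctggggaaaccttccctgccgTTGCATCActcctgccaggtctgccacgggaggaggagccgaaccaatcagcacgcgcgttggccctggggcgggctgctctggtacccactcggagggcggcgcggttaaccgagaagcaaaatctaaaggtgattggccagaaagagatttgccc

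Promoter peaks were a small share of every list, and this share was highest in WT -Leu MEFs. They made up 2.45% (2.05 to 2.93) of the WT +Leu list and 3.97% (3.52 to 4.48) of the WT -Leu list. The GCN2 KO lists held 2.33% (1.88 to 2.88) with leucine and 2.21% (1.72 to 2.84) without it. The intervals of the 2 WT lists did not overlap and those of the 2 GCN2 KO lists did. They cover counting error within 1 library each, so this is not a test of leucine in either genotype. The number of promoter peaks was 2.13 times as high in WT -Leu as in WT +Leu (1.71 to 2.64), while that of all other peaks was 1.29 times as high (1.25 to 1.34). In the absence of GCN2, the number without leucine was 0.711 of that with leucine (0.510 to 0.991), close to the ratio for other peaks (0.750, 0.713 to 0.789). Compared directly between genotypes, the GCN2 KO lists held 0.697 (0.527 to 0.922) of the WT number of promoter peaks with leucine and 0.233 (0.176 to 0.309) without it. For other peaks these ratios were 0.736 and 0.427 (0.408 to 0.447).

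**Figure D1:**
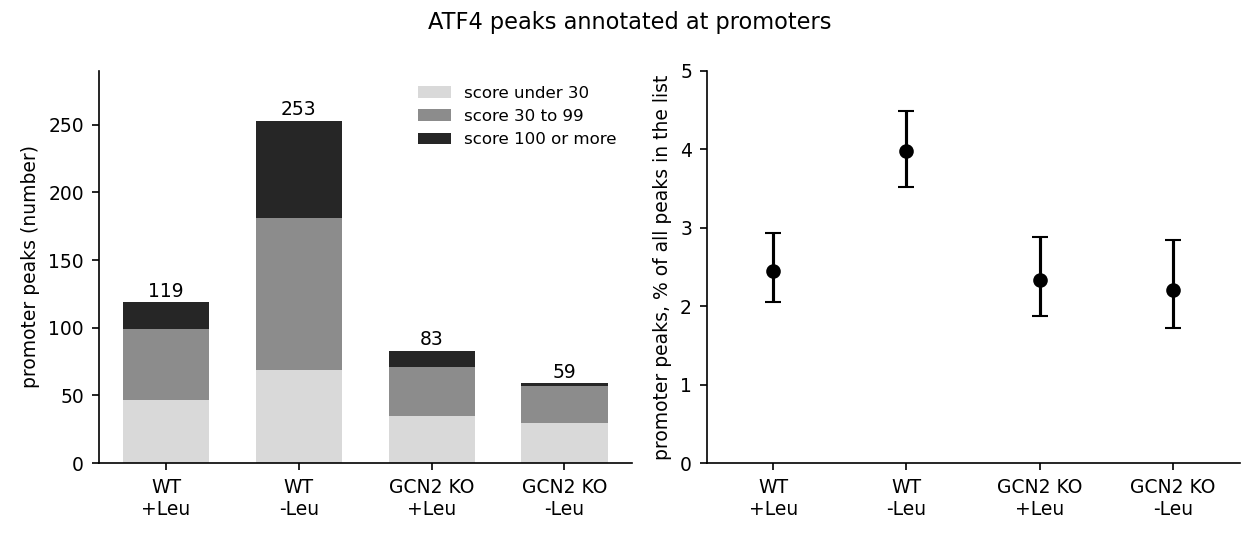
Left, number of promoter peaks in each of the 4 lists, with the bars divided by peak score (under 30, 30 to 99, 100 or more). Right, promoter peaks as a percent of all peaks in the list, with 95% Wilson intervals; WT -Leu stands at 3.97% and the other lists between 2.21% and 2.45%.

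Among WT promoter peaks, the ratio between the lists was larger at high scores, and larger still among peaks outside promoters. The score is a whole number given by the authors' peak caller, from 13 up, and is not normalized between libraries. At a score of 100 or more, 20 promoter peaks were listed in WT +Leu and 72 in WT -Leu, a ratio of 3.6 (2.20 to 5.88). For other peaks the numbers were 70 and 554, a ratio of 7.91 (6.18 to 10.1). Below 30 the numbers were 47 and 69, a ratio of 1.47 (1.02 to 2.12). In GCN2 KO MEFs, 12 promoter peaks with leucine and 2 without it reached 100, and 20 and 11 of the other peaks did. Promoter peaks had a median score of 30 in WT with leucine (quartiles 24 and 51) and 42 without it (28 and 126), and of 33 in GCN2 KO with leucine (25 and 43.5) and 28 without it (25 and 41). The medians of other peaks were 29, 30, 29 and 30 for the same lists. Hence the WT -Leu list had the highest median and the widest upper range. Promoter peaks were a larger share of the strongest peaks than of the whole list. Of all peaks scoring 100 or more, promoter peaks were 22.2% of 90 in WT and 37.5% of 32 in GCN2 KO with leucine, and 11.5% of 626 in WT and 15.4% of 13 (2 peaks) in GCN2 KO without it.

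The position of promoter peaks relative to the TSS was alike in the 4 lists. The median distance of the peak center was -188 bp in both WT lists, and -189 bp with leucine and -193 bp without it in GCN2 KO, where negative values lie upstream. In the order WT +Leu, WT -Leu, KO +Leu, KO -Leu, upstream centers made up 79.8%, 76.7%, 83.1% and 76.3% of them, and 53.8%, 51.4%, 53.0% and 49.2% lay 250 bp or less from the TSS. The annotation sets part of this, because peaks inside a gene are mostly placed in other classes. When all peaks with a center 1 kb or less from a TSS were taken, there were 251, 435, 188 and 128, and upstream centers made up 37.8%, 44.6%, 36.7% and 35.2%. Introns held 78, 124, 64 and 37 of these peaks.

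**Figure D2:**
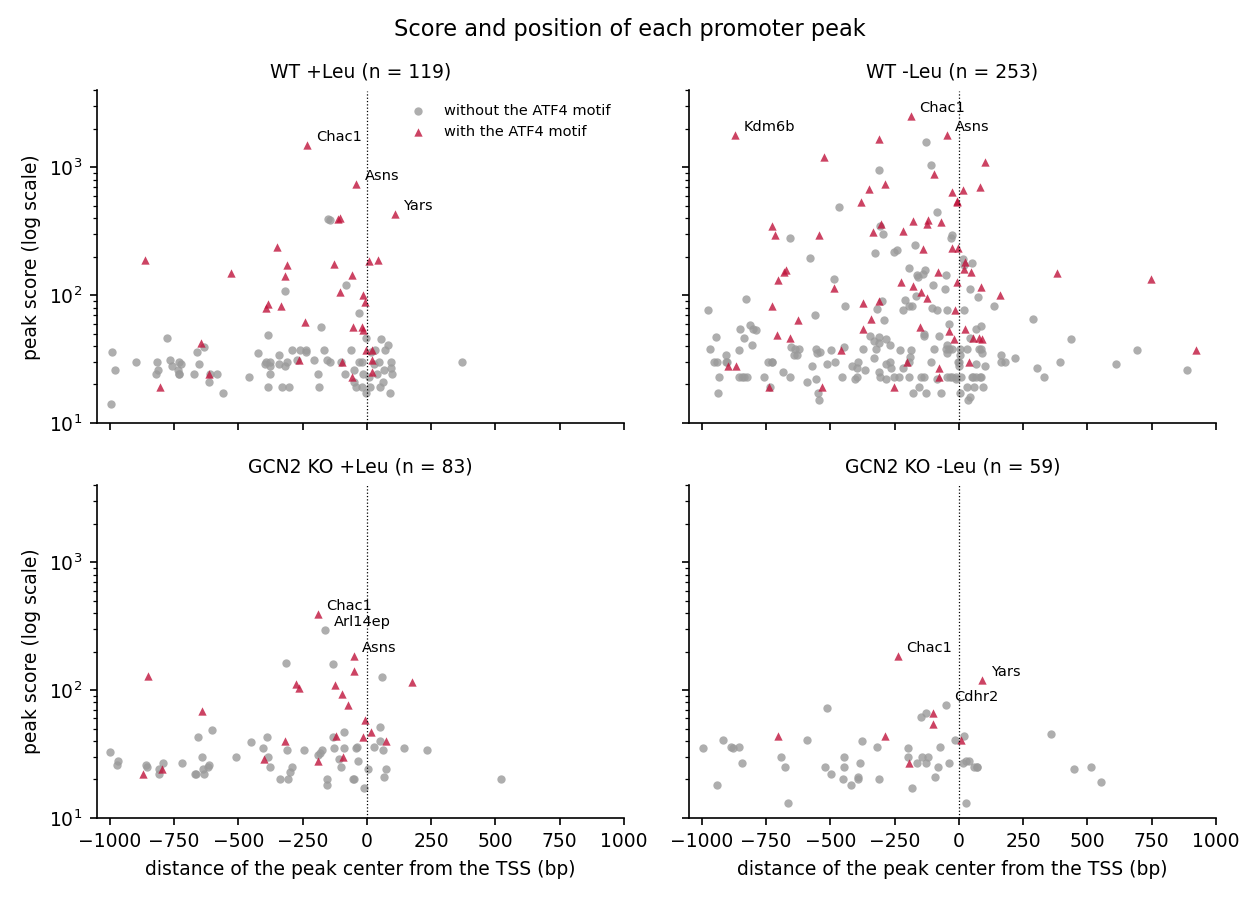
Score of each promoter peak (log scale) against the distance of its center from the TSS in bp, 1 panel per list; red triangles hold TGATGNAA in the window and grey circles do not, and the 3 highest-scoring peaks are named. Peaks above 100 are frequent in WT -Leu, where they number 72, and 2 in number in GCN2 KO -Leu.

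Promoter peaks lay in GC-rich sequence. Their median GC content was 56.1% in each of the 4 lists, whereas other peaks had medians between 51.5% and 53.2%. The median CpG content was 2.67% with leucine and 4% without it in WT, and 3.33% with leucine and 2.67% without it in GCN2 KO, compared with 1.33% for other peaks in every list. CpG-rich windows (GC of 50% or more and a CpG observed-to-expected ratio of 0.6 or more) were 28.6%, 37.9%, 28.9% and 30.5% of the promoter peaks of these lists. Among all 32851 RefSeq promoter sequences of the reference (250 bases before to 50 after each start) the share was 33.5%. All 4 shares were thus within 5 percentage points of that of annotated promoters in general. The windows are not alike, however, because many promoter peaks were centered more than 250 bp from the TSS. The RefSeq promoter sequences had a median GC content of 52.7% and a median CpG content of 2.33%. In WT -Leu, the CpG-rich share was 30.4% (20.8 to 42.1) of promoter peaks scoring under 30 and 47.2% (36.1 to 58.6) of those scoring 100 or more.

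Promoter peaks held the ATF4 element more often than annotated promoters did. TGATGCAA, searched on both strands of the 300-base window, was present in 21 of 119 WT +Leu promoter peaks (17.6%, 11.8 to 25.5) and 45 of 253 WT -Leu ones (17.8%, 13.6 to 23.0). GCN2 KO cells fed leucine had it in 13 of 83 promoter peaks (15.7%, 9.39 to 25), and in 4 of 59 once leucine was also withheld (6.78%, 2.67 to 16.2). All annotated promoters held it at 0.895%, and other peaks on assembled chromosomes, in the same order of lists, at 3.56%, 8.69%, 1.38% and 1.39%. With any base at position 6 (TGATGNAA, which includes TGATGCAA), the shares in promoter peaks were 28.6%, 28.5%, 26.5% and 13.6%, and 3.97% of all promoters held it. The copies lay near the summit, with a median distance from the peak center to TGATGCAA of 20, 12, 24 and 32 bp. In WT -Leu the base at position 6 was C in 47 of the 79 TGATGNAA copies, A in 19, T in 11 and G in 2. The element ran in the direction of the gene in 41 of these 79 copies (51.9%, 41.1 to 62.6).

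The element was concentrated in high-scoring promoter peaks. TGATGNAA was present in 16 of 20 WT +Leu promoter peaks scoring 100 or more (80.0%, 58.4 to 91.9), and in 44 of the 72 WT -Leu ones (61.1%, 49.6 to 71.5). For GCN2 KO these numbers were 8 of 12 with leucine (66.7%, 39.1 to 86.2) and 2 of 2 without it. Below a score of 30 the shares were 8.51%, 10.1%, 11.4% and 3.33%. Other peaks scoring 100 or more held it at similar shares, 82.6% and 65.3% in the WT lists with and without leucine and 72.2% and 66.7% in the GCN2 KO lists, with intervals that overlap those of promoter peaks.

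**Figure D3:**
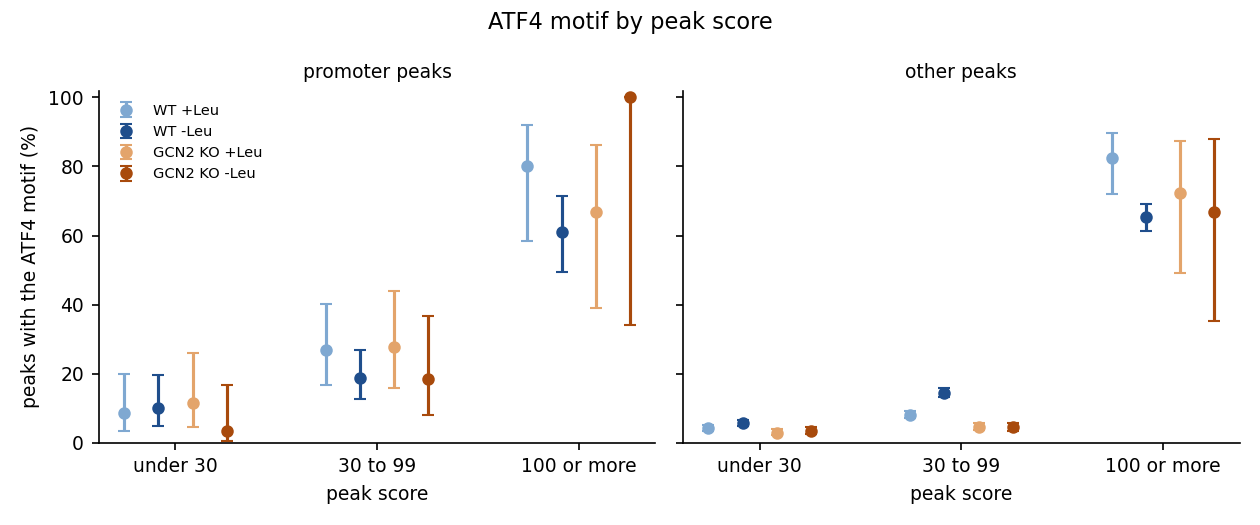
Share of peaks with TGATGNAA (%) by peak score, for promoter peaks (left) and all other peaks (right), with 95% Wilson intervals and 1 color per list. In promoter peaks the share is between 3.33% and 11.4% below a score of 30 and between 61.1% and 100% at 100 or more.

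Some of the strongest promoter peaks lacked TGATGNAA. In WT -Leu, 28 of the 72 promoter peaks scoring 100 or more had none, led by Arl14ep (score 1582), Psat1 (1050), Hspa9 (956), Slc19a2 (489) and Snx33 (450). Arl14ep encodes an effector of the small GTPase ARL14, Psat1 a transaminase of serine synthesis, Hspa9 the mitochondrial HSP70, Slc19a2 a thiamine transporter and Snx33 a sorting nexin. The longest run of bases shared by the Arl14ep and Psat1 windows was 11 bases long and held AACGCAAG, with a C/EBP half-site, 14 bp and 6 bp from the peak centers. It is shown in capitals.
Arl14ep, chr2:106974520-106974559, plus strand: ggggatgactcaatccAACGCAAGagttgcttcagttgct
Psat1, chr19:15925153-15925192, plus strand: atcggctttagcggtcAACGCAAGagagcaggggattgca
AACGCAAG was present in 3 of 253 WT -Leu promoter peaks (1.19%, 0.404 to 3.43) and 0.304% of all promoters. Another octamer with the same half-site, TGACGCAA, was present in 23 WT -Leu promoter peaks (9.09%, 6.13 to 13.3), 5 WT +Leu ones (4.20%, 1.81 to 9.46), and 3 (3.61%, 1.24 to 10.1) and 2 (3.39%, 0.935 to 11.5) of those in GCN2 KO with and without leucine. All promoters held TGACGCAA at 0.490% and other WT -Leu peaks at 0.524%. It was in 5 of the 28 strong WT -Leu promoter peaks without TGATGNAA, those of Hspa9, Snx33, Taco1, Aldh18a1 and Deb1, and lay 8 bp or less from the center in the first 4 of these. Sites of 3 of these genes are shown with TGACGCAA in capitals, read in the direction of the motif.
Snx33, chr9:56928442-56928481, plus strand: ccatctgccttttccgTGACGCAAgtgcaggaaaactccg
Taco1, chr11:106065923-106065962, minus strand: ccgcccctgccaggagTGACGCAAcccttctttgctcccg
Aldh18a1, chr19:40588385-40588424, minus strand: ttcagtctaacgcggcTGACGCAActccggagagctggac
Both octamers, and the genes Taco1 and Deb1, were chosen after their values had been seen, so these shares only describe the windows.

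Few promoter sites recurred between lists, and those that did had higher top scores. When peaks with centers 300 bp or less apart were merged, the 514 promoter peaks fell into 437 sites, of which 387 (88.6%) had a peak in 1 list, 26 in 2, 15 in 3 and 9 in 4. The median of the highest score of a site was 30, 127, 379 and 1098 in that order. Part of this rise is built in, because the highest score is taken over more lists at sites that recur. It came from WT -Leu, the list with the highest median score, at 22 of the 24 sites in 3 or 4 lists. TGATGNAA was present in 13.2% (10.2 to 16.9) of sites seen once, in 57.7% (38.9 to 74.5) of those in 2 lists, in 80.0% (54.8 to 93.0) of those in 3 and in 66.7% (35.4 to 87.9) of those in 4. Sites seen only in WT -Leu numbered 208, and 33 of these scored 100 or more. The 79 sites seen only in WT +Leu, the 52 only in GCN2 KO +Leu and the 48 only in GCN2 KO -Leu held no such score.

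By position, promoter peaks recurred more often than the lists as a whole. Of the WT +Leu promoter peaks, 37 of 119 (31.1%, 23.5 to 39.9) had a partner in WT -Leu, a peak with its center at most 300 bp away, while 6.35% of all WT +Leu peaks did. From the other side, 41 of 253 WT -Leu promoter peaks (16.2%, 12.2 to 21.2) had a WT +Leu partner, against 4.85% of all WT -Leu peaks. Of the GCN2 KO +Leu promoter peaks, 10 of 83 (12%, 6.68 to 20.8) had a GCN2 KO -Leu partner, against 2.75% of all peaks in that list. The same number, 10 of 59 (16.9%, 9.48 to 28.5), was found counting from GCN2 KO -Leu, against 3.59%. Between genotypes with leucine, 25 of 119 WT +Leu promoter peaks (21.0%) had a GCN2 KO +Leu partner, against 1.92% of all peaks, and 24 of 83 GCN2 KO +Leu promoter peaks (28.9%) had a WT +Leu partner, against 2.64%. Without leucine, 10 of 253 WT -Leu promoter peaks (3.95%) had a GCN2 KO -Leu partner, against 1.27%, and 8 of 59 GCN2 KO -Leu promoter peaks (13.6%) had a WT -Leu partner, against 3.03%. Recurrence also went with score. All 20 WT +Leu promoter peaks scoring 100 or more had a partner in another list, whereas 3 of the 47 below 30 did (6.38%, 2.19 to 17.2). At 100 or more, 69 of 70 other WT +Leu peaks also had one. For GCN2 KO these were 12 of 12 promoter and 18 of 20 other peaks with leucine. Without leucine they were 2 of 2 and 11 of 11. In WT -Leu, 54.2% of promoter and 29.4% of other peaks did. From 30 to 99, WT -Leu promoter peaks recurred less than other peaks (2.68% and 3.71%). In WT +Leu they recurred more (32.7% and 7.31%). The shares were 33.3% and 4.93% in GCN2 KO +Leu, and 25.9% and 7.10% in GCN2 KO -Leu.

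At promoter sites common to the WT lists, the score was higher without leucine. The median ratio of the WT -Leu to the WT +Leu score was 3.75 (binomial interval of the median 2.54 to 4.40) over the 37 sites, with 33 higher and 4 lower. It was 2 or more at 30 of the 37, while 58.4% of all 308 common WT sites reached this ratio. When each score was replaced by its percentile rank within its own list, 20 of the 37 sites were higher in WT -Leu and 17 lower. Ranks thus showed no common direction. They leave little room to rise here, though not to fall, because 28 of the 37 sites stood at the 95th percentile or above in WT +Leu. Of the other 9, 8 ranked higher in WT -Leu. These 9 were picked here by their low WT +Leu rank, a choice that by itself favors a rise. The examples of Nars, with percentiles of 35.9 and 94.7, and Tars, with 62.2 and 92.5, were chosen after their values had been seen. In GCN2 KO MEFs the direction was opposite. Over the 10 common promoter sites the median ratio of the -Leu to the +Leu score was 0.447 (0.223 to 1.04), with 2 higher and 8 lower, also by rank. None of the 10 was 2 or more times higher, against 5.10% of all 98 common GCN2 KO sites, and 7 were 2 or more times lower, against 17.3%. Compared between genotypes, the GCN2 KO score was 0.571 of the WT score with leucine (median of 25 sites) and 0.0680 without leucine (median of 10 sites). Over all common sites these medians were 0.667 (93 sites) and 0.469 (81 sites).

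There were 9 promoter sites with a peak in all 4 lists, and 8 genes were annotated to a promoter peak there in every list. Chac1 scored 1499 in WT and 391 in GCN2 KO with leucine, and 2515 in WT and 184 in GCN2 KO without it. Asns, which makes asparagine, scored 746 (WT +Leu), 1787 (WT -Leu), 184 (KO +Leu) and 41 (KO -Leu), and the values that follow keep this order. Its WT -Leu score was the highest of the 4 and its GCN2 KO -Leu score the lowest, as for Chac1. Acot2, a mitochondrial acyl-CoA thioesterase, scored 141, 1676, 104 and 44, which is the largest WT ratio of the 9 sites (11.9). Arl14ep scored 390, 1582, 297 and 62. Psat1 scored 398, 1050, 161 and 66. These 3 genes had the same order of lists as Asns. The alanyl-tRNA synthetase gene Aars scored 404, 893, 93 and 54, and the tyrosyl-tRNA synthetase gene Yars 432, 1098, 115 and 120. Yars was the exception among the 9 sites in scoring higher in GCN2 KO cells without leucine than with it, by a ratio of 1.04. Ppp1r15b, whose product guides a phosphatase to eIF2α, scored 144, 372, 140 and 66. With leucine its GCN2 KO score was 0.972 of the WT score. The ninth site, at Sfi1 (a centrosomal protein), scored 121, 145, 202 and 190. It had no TGATGNAA, was annotated as a promoter only in the WT lists and scored higher in GCN2 KO than in WT in both media.

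A further 14 promoter sites had a peak in WT +Leu, WT -Leu and GCN2 KO +Leu but not in GCN2 KO -Leu. The WT -Leu score was above the WT +Leu score at 13 of them, with a median ratio of 4.73 and a range of 0.967 to 9.58, and the GCN2 KO +Leu score was below the WT +Leu score at 11. Kdm6b, a histone H3K27 demethylase, scored 187 in WT +Leu, 1791 in WT -Leu and 128 in GCN2 KO +Leu. With leucine its WT peak center was at -865 bp, in a window with a CpG content of 0.667%, and held TGATGCAA. Hspa9 scored 108, 956 and 163, and was thus higher in GCN2 KO than in WT with leucine, as were Vldlr (62, 318 and 111), the VLDL receptor, and the asparaginyl-tRNA synthetase gene Nars (25, 183 and 40). Pck2, the mitochondrial phosphoenolpyruvate carboxykinase, was the site that did not score higher in WT -Leu (398, 385 and 110). The RNA-binding protein gene Taf15 scored 42, 296 and 24.

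**Figure D4:**
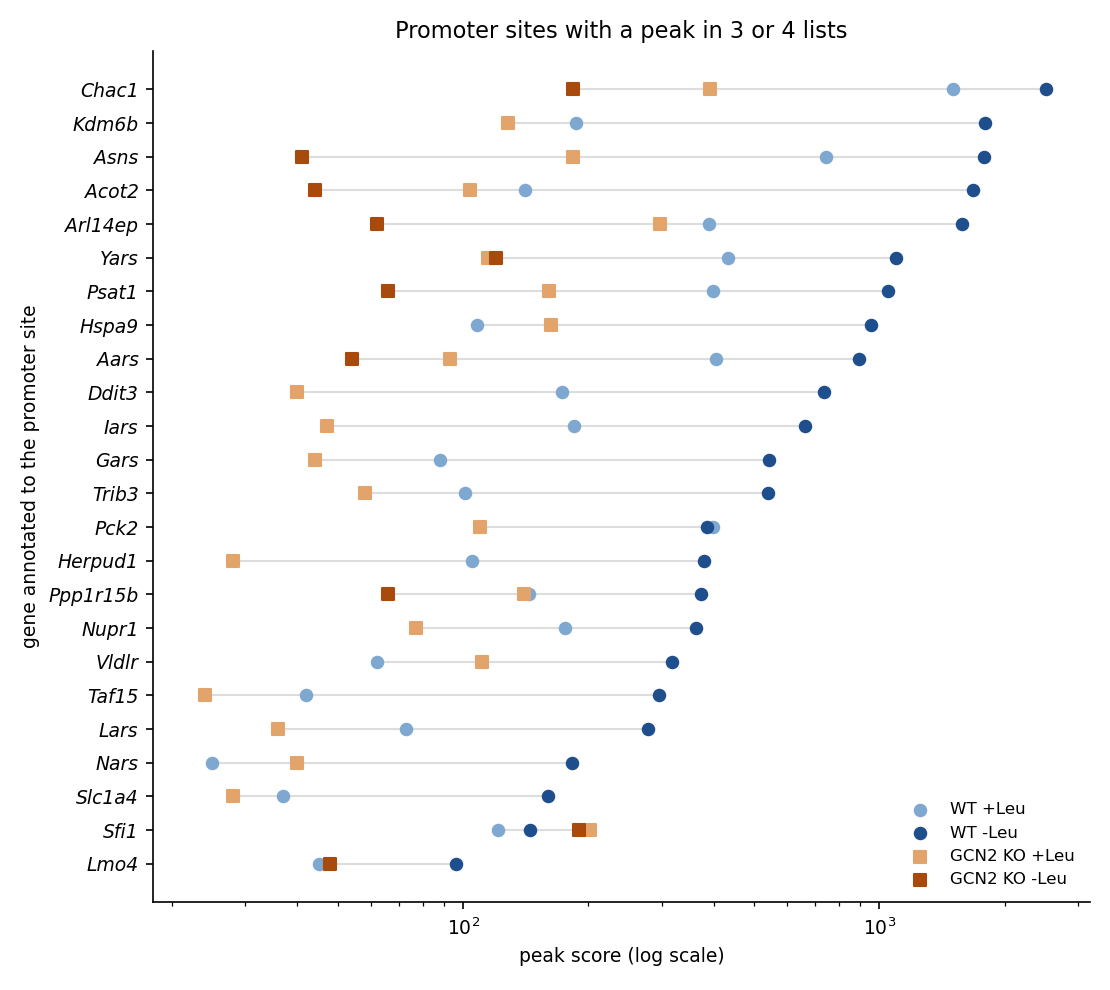
Peak score (log scale) in each list at the 24 promoter sites with a peak in 3 or 4 lists, 1 row per gene; a missing marker means that the list had no peak there. WT -Leu (dark blue circles) has the highest score at 22 of the 24 sites, Pck2 and Sfi1 being the exceptions.

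Genes of the integrated stress response and unfolded protein response were frequent among promoter peaks, as were tRNA synthetases. Of 46 response genes, 8 had a promoter peak in WT +Leu and 10 in WT -Leu, and 7 did in GCN2 KO with leucine and 2 without it. Among all 21896 protein-coding genes the shares with a promoter peak were 0.470% and 0.977% in the WT lists and 0.306% and 0.251% in the GCN2 KO lists. The gene lists were drawn up with earlier results of these data known, so their counts are descriptions. Ddit3, which encodes the pro-apoptotic factor CHOP, scored 173 in WT +Leu, 736 in WT -Leu and 40 in GCN2 KO +Leu and had no peak in GCN2 KO -Leu. Trib3, a pseudokinase that restrains ATF4 signaling, scored 101, 540 and 58. Herpud1, of ER-associated degradation, scored 105, 379 and 28, and Nupr1, a stress-induced chromatin protein, 176, 363 and 77. All 4 lacked a GCN2 KO -Leu peak. Ppp1r15a, the inducible eIF2α phosphatase subunit, Atf3 and Atf6 had a promoter peak only in WT -Leu, with scores of 76, 54 and 77. Cebpb had one only in WT +Leu (35, window from chr2:167688341). A nearby WT -Leu promoter peak (46), with TGATGCAA at chr2:167690109, was annotated to A530013C23Rik. The study, using a wider window around the TSS, listed Cebpb as a WT target in both media.

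Of 41 aminoacyl-tRNA synthetase genes, 8 and 9 had a promoter peak in WT with and without leucine, and 7 and 2 in GCN2 KO. These are 19.5%, 22.0%, 17.1% and 4.88%, against 0.470%, 0.977%, 0.306% and 0.251% of all protein-coding genes. Beside Aars and Yars, Iars (isoleucine) scored 185 in WT +Leu, 662 in WT -Leu and 47 in GCN2 KO +Leu. Gars (glycine) scored 88, 543 and 44, and Lars (leucine) 73, 278 and 36. Each of these was highest in WT -Leu and had no peak in GCN2 KO -Leu. Wars (tryptophan) had no WT +Leu promoter peak and scored 360 in WT -Leu and 29 in GCN2 KO +Leu. Tars (threonine) scored 30 with leucine and 127 without it, in WT alone. Cars (cysteine) was lower without leucine, at 188 and 151. No synthetase gene outside these 9 had a promoter peak in any list.

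Of 36 genes of amino acid synthesis and one-carbon metabolism, 3 and 7 had a promoter peak in WT with and without leucine, and 2 in either GCN2 KO list. These are 8.33% and 19.4% in WT and 5.56% in either GCN2 KO list. Of all protein-coding genes, 0.470% and 0.977% had one in WT with and without leucine, and 0.306% and 0.251% in GCN2 KO. Gpt2, the mitochondrial alanine transaminase, scored 238 in WT +Leu and 536 in WT -Leu. Aldh18a1 and Pycr1, both of proline synthesis, Got1, the cytosolic aspartate transaminase, and Ass1, of arginine synthesis, had a promoter peak in WT -Leu alone, with scores of 179, 118, 152 and 78. In both GCN2 KO lists the genes were Asns and Psat1. Among 32 amino acid transporter genes, 2, 3, 0 and 1 had a promoter peak in WT +Leu, WT -Leu, KO +Leu and KO -Leu. These are 6.25%, 9.38%, 0 and 3.12%, against 0.470%, 0.977%, 0.306% and 0.251% of all protein-coding genes. Slc1a4, a neutral amino acid transporter, scored 37 in WT +Leu and 160 in WT -Leu, and its GCN2 KO +Leu peak (28) was annotated outside the promoter. Slc6a9, the glycine transporter, and Slc7a11, the cystine-glutamate exchanger, had WT -Leu promoter peaks of 115 and 77. Slc7a7 had one in WT +Leu (21) and Slc7a5, a leucine transporter, in GCN2 KO -Leu (19). More transporters were the nearest gene of a peak elsewhere only, 13 (40.6%) in WT +Leu, 12 (37.5%) in WT -Leu, and 7 (21.9%) and 2 (6.25%) in GCN2 KO with and without leucine. Over all protein-coding genes these shares were 14.1%, 17.3%, 10.8% and 8.31%.

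Genes of mTOR signaling and translation with a promoter peak were few in number, though some of their shares were above those of all protein-coding genes. Of 47 mTOR and amino acid sensor genes, 2 had a promoter peak in WT +Leu, 1 in WT -Leu and none in the GCN2 KO lists. The WT shares were 4.26% and 2.13%, against the 0.470% and 0.977% of all protein-coding genes. In WT, 9 (19.1%) with and 12 (25.5%) without leucine were the nearest gene of a peak elsewhere only. In GCN2 KO these were 10 (21.3%) and 9 (19.1%). Over all protein-coding genes the shares were 14.1%, 17.3%, 10.8% and 8.31%. Larp1, a repressor of mRNAs that begin with an oligopyrimidine tract, scored 80 in WT +Leu and 65 in WT -Leu, with the peak center at -391 bp and -342 bp from the TSS and TGATGCAA in both windows. Its score was not higher without leucine, unlike those of most common sites. Sesn2, a leucine sensor, scored 31 in WT +Leu. The study, using a wider window around the TSS, named Sesn2 among genes already bound with leucine. It described ATF4 binding at these genes as largely stimulated when leucine was withheld. Of 60 translation factor genes, Eif2s2 (45) had a promoter peak in WT -Leu. Eef1a1, the elongation factor that delivers tRNA to the ribosome, had 1 in each GCN2 KO list (127 with leucine, 44 without) and none in WT. This is 1.67% of the group in each of these lists, against 0.977%, 0.306% and 0.251% of all protein-coding genes. The Eef1a1 window was CpG-rich and had no TGATGNAA. Of 163 ribosomal protein genes, Rpl7 (218) and Rpl13a (94) had a promoter peak in WT -Leu (1.23%) and Mrpl38 (13) in GCN2 KO -Leu (0.613%). No gene of the autophagy and lysosome list (44 genes) had one, where 0.251% to 0.977% of all protein-coding genes did.

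Among 51 bZIP genes, 4 had a promoter peak in either WT list, 1 in GCN2 KO with leucine and none without it. These are shares of 7.84% in both WT lists and 1.96% in GCN2 KO +Leu. Over all protein-coding genes the shares were 0.470% and 0.977% in WT, and 0.306% and 0.251% in GCN2 KO, with and without leucine. Beside those named, Jdp2, a repressor of AP-1, scored 53 in WT +Leu and 233 in WT -Leu, and Bach1 36 in WT +Leu. Kdm6b was the single gene among 82 chromatin genes (1.22% in each list where it had a promoter peak). Of 32 genes for mitochondrial chaperones, proteases and redox control, Hspa9, Dnaja3 (a mitochondrial HSP40, score 215) and Slc7a11 had a WT -Leu promoter peak (9.38%). In the order WT +Leu, WT -Leu, KO +Leu, KO -Leu, promoter peaks were at 1, 5, 0 and 1 of 411 ubiquitin ligase and proteasome genes. Trim66 (233 in WT -Leu) was the strongest. These shares (0.243%, 1.22%, 0 and 0.243%) were close to those of all protein-coding genes. At 220 splicing and RNA processing genes the numbers were 1, 4, 1 and 0 (0.455%, 1.82%, 0.455% and 0). They were led by Rbm4, an RNA-binding splicing regulator (83 in WT +Leu, 311 in WT -Leu).

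Gene names understate recurrence at some sites. Together the lists named 435 genes, of which 388 were in 1 list, 25 in 2, 14 in 3 and 8 in 4. By gene name, promoter peaks were shared less than peaks of the whole lists, in which a gene can be named by any peak nearest to it. In WT, 37 of the 119 genes with a +Leu promoter peak (31.1%) also had a -Leu promoter peak, against 1611 of the 3788 genes named by any +Leu peak (42.5%). In GCN2 KO it was 11 of 82 (13.4%) against 706 of 2866 (24.6%). One site was assigned to Txndc12 in WT +Leu (150) and to Btf3l4, the neighboring gene on the opposite strand, in WT -Leu (1206), both chosen for this after their values had been seen. The site of the long noncoding RNA gene Trp53cor1 was a promoter peak in WT -Leu (701) and classed as noncoding in WT +Leu (84); this gene was chosen after its values had been seen. Conversely, Slc25a54 was named in 3 lists, but its peaks did not all lie at the same site. In GCN2 KO -Leu, Cdhr2 (76), Gm11562 (72) and Msh4 (45) were among the 10 highest-scoring promoter peaks, and none of them was in the other lists. The rest of these 10 were Chac1, Yars, Psat1, Ppp1r15b, Arl14ep, Aars and Acot2, each named in all 4 lists. Bean1 (56 in WT +Leu, 23 in WT -Leu), chosen after its values had been seen, was the common WT promoter site with the lowest ratio, 0.411.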

How the data were processed

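ATF4 ChIP-seq values were 4 annotated peak lists, 1 per condition. According to the submitters' processing notes and the study's methods, reads were trimmed with fastx, aligned to mm10 with BWA (0.7.12) and peaks were called with MACS2 (2.1.0), then annotated with HOMER (4.7) as summit ±150 bp. The authors deposited a peak score whose scale is not given in the sources used here, distance to the TSS in bp, and the fraction of bases that are G or C, or in CpG (given here in percent).

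Members and gene lists were chosen with earlier results of these data known. Promoter peaks were counted, matched (centers 300 bp or less apart), and searched for 10 motifs (2 more were added after seeing the data) in 300 bases of the GRCm38.p6 reference. GC content of all 514 windows equaled that of the reference (tolerance 2e-06). Promoter sequences were RefSeq's for that build. Named genes were the 10 highest-scoring promoter peaks per list, genes in 3 or more lists, gene-list members with a promoter peak and the 5 strongest promoter peaks without TGATGNAA per WT list. Of the gene symbols listed, Nars1 and Samtor could not be matched; Nars was. No test was made. Alternatives were a score of 30 or more, equal list length, assembled chromosomes, TSS windows of 1 kb, other matching distances, percentile ranks and other motif settings. Software was samtools 1.23.1, matplotlib 3.10.9, scipy 1.17.1, pandas 2.3.3, numpy 2.4.6 and pysam 0.24.0 under Python 3.11.15, and counting steps were tested on simulated data.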

Additional observations from a re-analysis of the deposited data

Results flagged for a closer look

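Promoter peaks without leucine differed from those with leucine in opposite directions in the genotypes, and this difference was not tested because each condition had 1 library. The ratio of the number of promoter peaks, -Leu over +Leu, was 2.13 in WT and 0.711 in GCN2 KO. Other peaks had ratios of 1.29 and 0.750, so the opposite directions were not particular to promoters. When the 2672 strongest peaks of each list were taken, the ratio for promoter peaks was 2.01 in WT and 0.922 in GCN2 KO. Little of the GCN2 KO decrease in number thus remained at equal list length. The median score ratio at common promoter sites was 3.75 in WT and 0.447 in GCN2 KO, and over all common sites 2.36 and 1. Of the 9 sites with a peak in all 4 lists, 8 scored higher without leucine than with it in WT cells and lower without it in GCN2 KO cells. The depth of the libraries is unknown, and its part in these ratios was not tested.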

How the results depend on the processing

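No paired analysis was possible because each condition had a single library. Of 186 values under the alternatives, 124 stayed within the interval or within 1.5 times the value reported and 62 moved. Only ratios could be called reversed, and none was. The values that stayed include those for assembled chromosomes only, an alternative that changed almost nothing. Values for 4 lists follow the order WT +Leu, WT -Leu, KO +Leu, KO -Leu. The ratios of the number of promoter peaks, -Leu over +Leu, stayed within their intervals under every alternative run. At equal list length that of GCN2 KO was 0.922, compared with 0.711 for the full lists.

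A score of 30 or more left 72 promoter peaks in WT +Leu, and 48 and 29 in GCN2 KO with and without leucine. It gave list shares of 2.97% and 4.93% in the WT lists, a GCN2 KO over WT ratio of 0.158 without leucine, median scores of 40, 76.5, 43 and 41, upstream centers of 86.2% in GCN2 KO -Leu, and TGATGCAA shares of 27.8% and 23.4% in the WT lists. Taking the 2672 strongest peaks of each list left 78 and 157 in WT, 5.88% of the list in WT -Leu, and a GCN2 KO over WT ratio of 0.376 without leucine.

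Taking peaks within 1 kb of a TSS, with or without the annotated promoters, gave the same values for both alternatives. There were 251, 435, 188 and 128 peaks, shares of 5.18%, 6.82%, 5.27% and 4.79%, and upstream centers of 37.8%, 44.6%, 36.7% and 35.2%. The peaks common to the 4 pairs (WT, GCN2 KO, +Leu, -Leu) were 65, 17, 37 and 16, and the genes 67, 17, 37 and 19. TGATGNAA in place of TGATGCAA gave shares of 28.6%, 28.5% and 26.5% in the first 3 lists, and TGATGCAA or TGACGCAA, added after seeing the data, 24.5% in WT -Leu. On percentile ranks the median ratio at common WT promoter sites was 1. Of the 37 sites, 28 were already at the 95th percentile or above in WT +Leu, which limits rises but not falls. Depth, which the lists do not give, limits every comparison between libraries.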

Other observations

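Several elements of general promoters were about as frequent in promoter peaks as in promoters at large. The CCAAT box was present in 31.9% and 32.4% of promoter peaks in WT with and without leucine and in 31.3% and 35.6% in GCN2 KO, and in 37.4% of all annotated promoters. The GC box GGGCGG was present in 35.3%, 41.5%, 26.5% and 33.9% in this order of lists, and in 35.7% of all promoters. The ETS element CCGGAAG was present in 7.56%, 9.88%, 7.23% and 5.08%, against 8.86%. The palindromic cAMP response element TGACGTCA was present in 0, 2, 1 and 1 of the promoter peaks, and in 1.79% of all promoters. The AP-1 element TGANTCA was present in 5.04%, 6.32%, 10.8% and 3.39%, against 7.81%, and the E-box CACGTG in 10.1%, 10.3%, 6.02% and 10.2%, against 7.15%. GCATGCGC was in 0, 3, 2 and 1 of the promoter peaks (0, 1.19%, 2.41% and 1.69%), against 2.71% of all promoters. AAGATGGC was in 1, 3, 1 and 0 (0.840%, 1.19%, 1.20% and 0), against 2.75%. All motifs were searched on both strands.

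Promoter peaks at noncoding RNA genes numbered 14 and 37 in WT with and without leucine, and 16 and 3 in GCN2 KO (11.8%, 14.6%, 19.3% and 5.08% of promoter peaks). Of all peaks, the nearest gene was noncoding for 14.6% in WT +Leu and 14.4% in each of the other lists. mRNA starts on both strands lay within 1 kb of 4.20%, 9.49%, 4.82% and 1.69% of promoter peaks, and of 9.19% of 25999 mRNA starts. A gene with 2 promoter peaks in a list was seen for Hspa9 in WT -Leu (scores 956 and 23) and for Mir3060 in GCN2 KO +Leu (26 and 22), both named after their values had been seen.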
